A study of Mus musculus with 2207 samples.

Results

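Re-supply of GLP to neurons after birth was examined in single neuronal nuclei of Ehmt1 heterozygous mice, by comparing 280 nuclei of mice with an induced Ehmt1 transgene with 306 nuclei of mice without induction. The 586 nuclei were those labelled neurons in 2 of the 4 genotype pools of the 384-well plates, out of 2207 nuclei in the whole series. They were chosen by their labels of genotype and cell type, the latter from the clustering made for the study. The control pair of the same plates held 275 neurons of wild-type mice with the induced transgene and 285 wild-type neurons without induction, and 518 neurons of a separate 96-well experiment gave lists of genes that differ in heterozygous neurons.

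GLP, encoded by Ehmt1, forms a heteromer with G9a, encoded by Ehmt2, and this complex puts dimethylation on lysine 9 of histone H3 (H3K9me2), a mark of silent chromatin. Loss of one EHMT1 copy causes Kleefstra syndrome, a developmental disorder with intellectual disability and autistic features. In neurons the mark lies over silent genes, among them germline genes and genes of other cell types.

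All mice of the 384-well pools carried the Ehmt1 iTg allele, which the study describes as a FLAG-tagged Ehmt1 under the CAG promoter at Rosa26 that is switched on by Cre. The pool here called Ehmt1Δ/+ iTg is labelled Ehmt1delta/+; Ehmt1 iTg; CamKII-CreER. Its comparison pool, here called Ehmt1Δ/+, is labelled Ehmt1delta/+; Ehmt1 iTg without CamKII-CreER. The pool iTg had both Ehmt1 copies, the iTg allele and CamKII-CreER, and the pool WT had both copies and the iTg allele without CamKII-CreER. CamKII-CreER places a tamoxifen-dependent Cre in forebrain neurons, mostly excitatory ones. All mice, controls included, were given 2 doses of tamoxifen of 100 mg/kg when 3 weeks old, and cortex was taken at 14 weeks from 3 male C57BL/6 mice per genotype. The 96-well pools were Ehmt1+/+ and Ehmt1delta/+ mice of the same age and treatment whose labels name neither the iTg allele nor Cre. No label says which mouse a nucleus came from, so that each genotype is 1 pool and the differences between pools have no replicate. By the labels, the heterozygous pair differs by CamKII-CreER itself as well as by the GLP that it induces, and these cannot be told apart. The study's text instead describes all 4 of these groups as mice with CamKII-CreER. The labels were followed here, and which of them holds for WT and Ehmt1Δ/+ bears on whether a pair differs by the driver or by the iTg allele. The labels give WT one plate code and the other 3 pools another, and every pool is a single genotype, so that genotype and library preparation cannot be told apart.

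The values are RPKM, reads per kilobase of gene scaled to the reads of the nucleus, from random-primed full-length RNA-seq of nuclei (RamDA-seq). The recovered read total of a neuron had a median of 323273 reads in Ehmt1Δ/+ iTg, 356746 in Ehmt1Δ/+, 397880 in iTg and 392718 in WT. The median number of genes above 0 was 14713 in Ehmt1Δ/+ iTg, the shallowest pool, against 13652, 13140 and 14447 in the other 3. Neuronal identity was clear, with summed levels of 10 neuron markers between 239 and 307 RPKM in the 4 pools. Summed levels were 8.67 to 11.8 RPKM for 14 microglia markers, 9.93 to 13.7 RPKM for 12 oligodendrocyte markers, 1.61 to 2.08 RPKM for 8 precursor markers and 1.16 to 2.34 RPKM for 10 vascular markers, of which Cldn5 and Kcnj8 were at 0 in both heterozygous pools. The 10 astrocyte markers summed to 54.9 RPKM in Ehmt1Δ/+ iTg and to 37.2 to 41.9 RPKM in the other pools. The part of such RNA in the results below was not tested.

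The pool labelled Ehmt1Δ/+ iTg stood apart from the other 3 by the base composition of its genes. Log2 ratios are given as the log2 of (mean RPKM + 0.1) of one pool over the other, minus the median over all genes kept, which were those above 0 in at least 10% of the neurons of both pools together. For 23497 genes kept in the heterozygous pair that median was 0.16 before it was removed. After centring, the median log2 ratio was 0.49 in the decile of genes with the least GC in the transcript (under 40.2%) and fell in each further decile, to -0.39 in the decile with the most (over 57.4%). The same gradient ran from 0.53 to -0.38 in the oligodendrocytes and from 0.47 to -0.36 in the microglia of these pools. In neurons the medians of the deciles spanned 0.89 for this pair, 0.078 for iTg against WT and 0.080 for Ehmt1Δ/+ against WT. They spanned 0.96 and 1.02 where the Ehmt1Δ/+ iTg pool was set against WT or iTg. Values centred within 20 bins of GC content are given below for many genes and lists, and the part of base composition in the others was not tested.

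**Figure D1:**
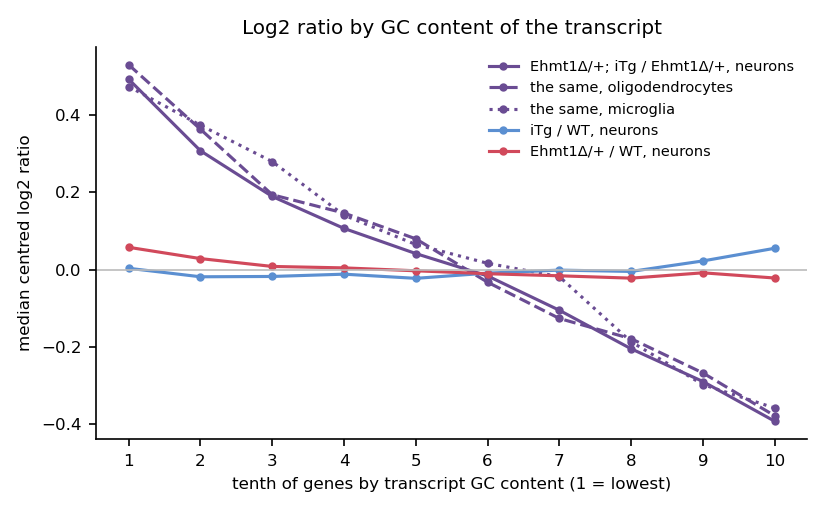
Median centred log2 ratio (vertical axis) in deciles of genes ranked by transcript GC content (horizontal axis), one line for each pair of pools and cell type. The lines of Ehmt1Δ/+; iTg against Ehmt1Δ/+ descend from about 0.5 to about -0.4 in neurons, oligodendrocytes and microglia, while the lines of the other pairs of neurons span 0.078 and 0.080.

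The RNA of the supplied gene itself was examined first. Ehmt1 lies on the minus strand of mm10 at chr2:24789928-24919614 and was found in all neurons of both heterozygous pools. Its mean was 31.7 RPKM (SD across nuclei 11.96) in Ehmt1Δ/+ and 33.9 (SD 11.2) in Ehmt1Δ/+ iTg, and 19.5 (SD 8.88) in WT and 20.7 (SD 9.59) in iTg. The 2 pools labelled heterozygous were thus above both pools labelled Ehmt1+/+, the reverse of their labels if RNA followed the number of gene copies, and the direction of every comparison rests on the labels. The separate 96-well plates showed the same order, with 18.7 RPKM in WT and 31.2 in Ehmt1Δ/+ neurons. The centred log2 ratio of Ehmt1Δ/+ to WT was 0.76 there and 0.73 in the 384-well plates. The centred log2 ratio was -0.06 in the heterozygous and 0.17 in the wild-type pair, so that the induced pools held Ehmt1 RNA close to that of their partners. For the protein, the study reported from staining of cortex more GLP than in WT in NeuN+ cells after induction. Protein was not measured in these nuclei. The lower and upper quartiles of the nuclei were 23.5 and 38.7 RPKM in Ehmt1Δ/+ and 26.4 and 39.6 in Ehmt1Δ/+ iTg, so that the distributions overlap widely. In neurons with more Slc17a7 (a vesicular glutamate transporter of excitatory neurons) than Gad1 (the enzyme of GABA synthesis) the means were 30.6 and 34.0 RPKM, and in neurons with more Gad1 they were 36.9 and 33.5. Oligodendrocytes were at 32.6 and 28.3 RPKM and microglia at 20.8 and 26.4. One value per gene holds the RNA of the endogenous gene and of a transgene with the same exons together. Ehmt2, the G9a gene, was at 71.4 RPKM in WT, 66.2 in Ehmt1Δ/+, 66.8 in iTg and 47.0 in Ehmt1Δ/+ iTg, lowest in the last. Its log2 ratio was -0.66, and -0.23 after centring within GC bins, its transcript having 60.8% GC. Gt(ROSA)26Sor, the noncoding RNA of the locus that holds the iTg allele, was at 0.890, 0.833, 1.28 and 2.02 RPKM in the same order, which gave 1.02 in the heterozygous pair (0.41 within GC bins) and 0.57 in the wild-type pair.

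**Figure D2:**
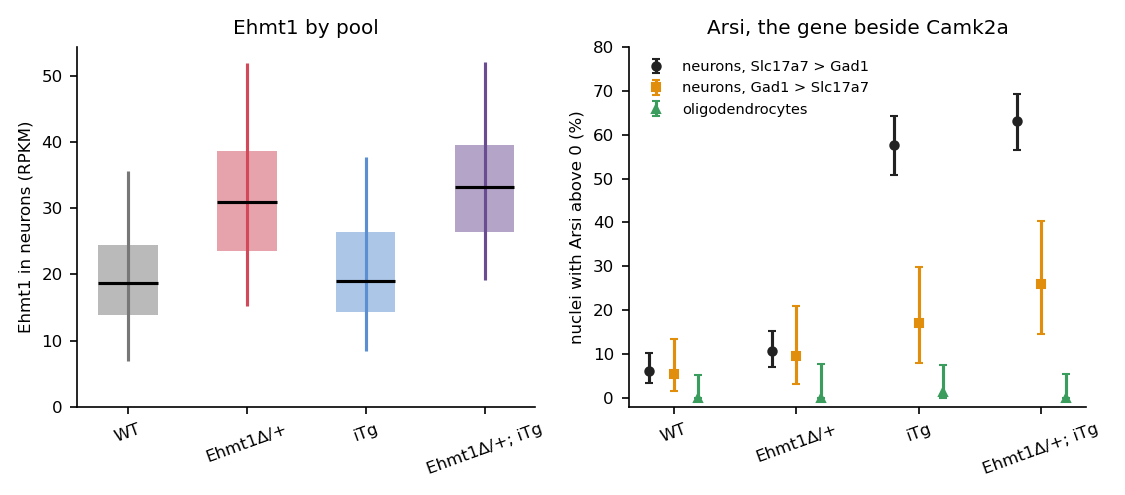
Left, Ehmt1 in neurons of the 4 pools in RPKM, with boxes from the lower to the upper quartile of nuclei, a black line at the median and whiskers from the 5th to the 95th percentile. Right, the share of nuclei with Arsi above 0 in % by pool and class of nucleus, with exact 95% intervals. The Ehmt1 medians are 30.9 and 33.2 RPKM in the 2 heterozygous pools, and the Arsi share goes from 10.7% to 63.0% of neurons with more Slc17a7 than Gad1.

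Of the 5 genes that differed past 2-fold in the same direction in both pairs, the one with the largest ratios was Arsi, an arylsulfatase gene at chr18:60911780-60918561 that lies next to Camk2a (chr18:60925618-60988152), the gene whose promoter drives the CreER transgene. Arsi was at 0.635 RPKM in WT (SD across nuclei 5.46), 1.0 in Ehmt1Δ/+ (SD 4.80), 5.64 in iTg (SD 10.3) and 6.24 in Ehmt1Δ/+ iTg (SD 10.6). Both pools labelled with CamKII-CreER were above both pools labelled without it. Its log2 ratio was the highest of the protein-coding genes kept in the heterozygous pair, 2.37, and 3.05 in the wild-type pair. Across the 4 pools, with Ehmt1 genotype as a block, limma gave a transgene effect of 2.67 on the log2 scale (SE 0.31, adjusted p = 1.48e-13). That fit has 1 residual degree of freedom and gave every gene the same SE, and without median centring of the pools it called no gene, with an adjusted p of 1 for Arsi.

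The nuclei show the same split as the means. A value above 0 was found in 32 of 306 Ehmt1Δ/+ neurons (10.5%, exact 95% interval 7.26% to 14.4%) and in 158 of 280 Ehmt1Δ/+ iTg neurons (56.4%, 50.4% to 62.3%), and in 17 of 285 WT and 137 of 275 iTg neurons (5.96% and 49.8%). These intervals, as all others here, cover counting error only and not the spread of mice. Among neurons with more Slc17a7 than Gad1 the share went from 10.7% (27 of 253) to 63.0% (145 of 230, 56.5% to 69.3%). Among neurons with more Gad1 it was 9.62% (5 of 52) and 26% (13 of 50, 14.6% to 40.3%). Arsi was found in 0 of 46 and 0 of 67 oligodendrocytes of the heterozygous pools, which allows shares of up to 6.52% and 4.48%, and in 0 of 19 and 0 of 23 microglia, which allows 15.8% and 13.0%. These nuclei had medians of 39940 to 54250 reads, below neurons, so that their shares are not at the same depth. Thinned to 181913 reads, the neuron shares were 7.37% in Ehmt1Δ/+ and 53.6% in Ehmt1Δ/+ iTg. The other genes around Camk2a stayed within 2-fold. Camk2a itself was at 166 and 161 RPKM in the heterozygous pair, Slc6a7, a proline transporter gene, at 57.5 and 60.1, and Tcof1, a nucleolar factor gene, at 9.90 and 6.40. Of 7 kept genes of that neighbourhood, Arsi alone was past 2-fold, and their median was -0.20.

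Across all genes, 871 of 23497 (3.71%) were at least 2-fold higher and 202 (0.86%) at least 2-fold lower in Ehmt1Δ/+ iTg than in Ehmt1Δ/+ neurons, so that 81.2% of the genes past 2-fold were higher. In the wild-type pair the counts were 60 higher (0.256%) and 144 lower (0.614%) of 23451 genes. The excess of higher genes lay outside protein-coding genes. Of 13842 protein-coding genes, 48 were higher (0.347%) and 101 lower (0.73%). Of 1808 genes of the annotation class TEC, which awaits experimental evidence, 366 were higher and 2 lower, with a median of 0.59. Among small nuclear RNAs 38 of 182 were higher, among sense-intronic RNAs 44 of 230, among small nucleolar RNAs 54 of 480 and among processed pseudogenes 160 of 2600. The median GC content was 40.3% for the higher genes, 53.3% for the lower genes and 48.6% for all genes kept. Centring within GC bins left 417 higher genes and moved the higher share of the genes past 2-fold to 68.1%, while protein-coding genes centred on their own median gave 72 higher and 74 lower (49.3% higher). Without centring the higher share was 92.8%.

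The 15 genes that ranked highest, with 599 unnamed genes, pseudogenes and small RNAs passed over, had diverse known functions. They were Arsi, Cthrc1 (a secreted collagen-domain protein), Lrrc8dos, Dleu2 (the host of miR-15a and miR-16), S100g (a calcium-binding protein), Kantr, Fdx1 (a mitochondrial ferredoxin), Nr6a1os, Churc1, Tmem88b, Naa30 (a subunit of an N-terminal acetyltransferase), Xirp2, Slc16a4 (a monocarboxylate transporter), Cxxc4 (a CpG-binding inhibitor of Wnt signalling) and Chrm2 (a muscarinic acetylcholine receptor), with log2 ratios down to 1.07. Apart from Arsi, they were low in the other pools of the same plates and closer to their 96-well levels in Ehmt1Δ/+ iTg. Dleu2 was at 1.65 RPKM in WT, 1.46 in Ehmt1Δ/+, 1.45 in iTg and 4.43 in Ehmt1Δ/+ iTg, and at 5.58 and 6.78 in the WT and Ehmt1Δ/+ pools of the 96-well plates. Naa30 was at 3.41, 3.44, 2.77 and 8.34 RPKM in the 4 pools, and at 12.3 and 13.0 in the 96-well pools. Snap25, a gene of synaptic vesicle fusion, showed the same order at a high level, with 63.0, 64.3, 66.3 and 118 RPKM in the 4 pools and 130 and 131 in the 96-well pools. The tables of both plate formats were made separately, and these levels are set side by side with no test. Dleu2 has 34.5% GC, Naa30 40.5% and Snap25 38.7%, and within GC bins their log2 ratios fell to 0.76, 0.76 and 0.32. Cthrc1, at 1.81 RPKM in Ehmt1Δ/+ and 5.89 in Ehmt1Δ/+ iTg, kept 1.41 of its 1.49, and it was at 2.14 in WT and 3.29 in iTg, the pool next in order. Tmem88b and Fdx1 also stayed past 2-fold within GC bins, both at 1.09.

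The 15 lowest genes, with 18 passed over, held genes of complement, of calcium release and of the cytoskeleton. C1s1 (complement protease C1s) ranked first at -2.17, followed by Clec18a (a C-type lectin, -1.91), Map4k1 (a kinase of blood cells, -1.56) and Ryr1 (the ryanodine receptor of calcium stores, -1.54). The others were Muc19, Pygm (muscle glycogen phosphorylase), Cdc42bpg, Nckap1l (an actin regulator of blood cells), Vwa3a, Catip, Aldh1l1 (a folate enzyme known as an astrocyte marker), Nr4a3, C1ra, Lrp4 (the agrin co-receptor) and Dysf (dysferlin, of membrane repair), between -1.54 and -1.30. Ryr1 was at 9.43 RPKM in WT, 12.2 in Ehmt1Δ/+, 7.04 in iTg and 4.59 in Ehmt1Δ/+ iTg. The Ehmt1Δ/+ pool was the highest of the 4 and the Ehmt1Δ/+ iTg pool the lowest, an order that Clec18a (4.69, 7.75, 3.51 and 2.23) shared. Pygm was at 1.18, 1.84, 1.70 and 0.643 RPKM, again with its highest level in Ehmt1Δ/+ and its lowest in Ehmt1Δ/+ iTg. All 15 kept a ratio of at most -1 within GC bins, from -2.22 for C1s1 to -1.02 for Dysf and Cdc42bpg. Aldh1l1 was 1 of 5 astrocyte markers kept, and the only one past 2-fold, with a median of -0.04 over the 5.

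The separate 96-well experiment allowed the question of rescue to be put to genes chosen on other nuclei. There, 128 of 25530 genes (0.501%) were at least 2-fold higher in Ehmt1Δ/+ than in WT neurons and 328 (1.28%) at least 2-fold lower. Of the 128 raised genes, which include Casp1, 81 without Casp1 were kept in the heterozygous pair of the 384-well plates. Of these, 16 (19.8%) were at least 2-fold lower in Ehmt1Δ/+ iTg, beside 0.86% of all genes, and 1, Mirt1, was higher, beside 3.71%. The ratio of Mirt1 was 1.74, and 0.20 without the 5% highest nuclei of each pool. Their median was -0.34, with 59 of 81 below 0. Among 41 protein-coding members, 11 were lower (26.8%, beside 0.73% of protein-coding genes), none was higher, and the median was -0.70 beside -0.08 over all protein-coding genes. Of the 16, 3 reached the share of 10% of nuclei in Ehmt1Δ/+, the pool where they are high, and not in Ehmt1Δ/+ iTg. With the genes kept in the wild-type pair, a filter from pools that this comparison does not use and that was added after the data were seen, 13 of 67 raised genes (19.4%) were lower in Ehmt1Δ/+ iTg, beside 0.981% of all 23451 genes, 1 was higher, and the median was -0.40. In the wild-type pair, over the same 67 genes, 1 was lower (beside 0.614% of all genes) and none higher (beside 0.256%), with a median of 0.04. Within GC bins 14 of the 81 were lower and the median was -0.38, and the median GC content of the list, 47.6%, was near that of all genes. These genes are also higher in the Ehmt1Δ/+ pool of the 384-well plates, with a median of 0.44 against WT, and that pool is the denominator here. Against WT, the Ehmt1Δ/+ iTg pool had a median of 0.24 for the same list. For its protein-coding members the medians against WT were 0.51 in Ehmt1Δ/+ and -0.08 in Ehmt1Δ/+ iTg, and for the other members 0.26 and 0.51. With means of log2(RPKM + 1) over nuclei none of the raised genes was past 2-fold lower and the median was 0.25, and with a pseudocount of 1 only 1 was.

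The 16 lower genes, named here after their values were seen, were C1s1, C1ra and C1rb of complement, Clec18a, Aspg (an asparaginase), Fmo1 (a flavin monooxygenase), Catip, Lama2 (a laminin chain of basement membranes), Fgf17 (a fibroblast growth factor), Neb (nebulin), Col27a1 (a fibrillar collagen) and the unnamed genes Gm39436, Gm36251, Gm10435, Gm20752 and Gm13002. Aspg was at 1.63 RPKM in WT, 4.76 in Ehmt1Δ/+, 2.87 in iTg and 1.39 in Ehmt1Δ/+ iTg, and Lama2 at 0.314, 0.826, 0.230 and 0.345. In both, Ehmt1Δ/+ was the highest pool and Ehmt1Δ/+ iTg lay close to WT. The ratio of Fmo1 rested on a few nuclei, since leaving out the highest 5% of the nuclei of each pool moved it from -1.83 to -0.22. Of the other raised genes of largest ratio, Myl4 (a myosin light chain) was at 3.15 RPKM in Ehmt1Δ/+ and 3.58 in Ehmt1Δ/+ iTg, a ratio of 0.02, Loxl2 (a lysyl oxidase) was at -0.23 and Gjc3 (a connexin) at 0.23, with at most 0.126 RPKM in any of the 4 pools. Xlr3a, Xlr3b and Xlr3c, X-linked lymphocyte-regulated genes, had ratios of -0.71, -0.55 and -0.40, and these near-identical copies can share reads.

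The 328 genes lowered in the 96-well experiment were not higher as a group in Ehmt1Δ/+ iTg. Against WT of the 384-well plates, the kept genes of this list had a median of -0.24 in Ehmt1Δ/+ and of -0.34 in Ehmt1Δ/+ iTg. Of 274 kept, 4 (1.46%, beside 3.71% of all genes) were at least 2-fold higher in Ehmt1Δ/+ iTg than in Ehmt1Δ/+. Another 11 (4.01%, beside 0.86%) were lower, and the median was -0.13. Within GC bins 34 of 273 were lower, beside 195 of 23409 genes, 4 were higher, and the median was 0.01. The 4 higher genes before that were A630081D01Rik, Gm5953, Gm43429 and Pax6, a transcription factor gene whose mean was at most 0.396 RPKM in all 4 pools and whose ratio of 1.36 fell to 0.22 without the 5% highest nuclei. Of the 11 lower genes, 5 were Egr2, Egr4 and Fosb, early transcription factor genes, Sik1, a kinase gene of the cAMP response, and T2, and 3 were mitochondrial (mt-Nd6, mt-Atp8 and mt-Cytb). The others were Gm43539, Gm34176 and Gm32647. Of these 11 genes, Egr2, Egr4, Gm43539 and Gm34176 were lower in Ehmt1Δ/+ than in WT of the 384-well plates, with ratios of -0.15 to -0.49. The rest were not, with ratios from 0.09 for T2 to 1.18 for mt-Nd6, so that they had no loss there to return from. In the wild-type pair 292 of the list were kept, with 26 higher (8.90%, beside 0.256% of all genes), 5 lower (1.71%, beside 0.614%) and a median of -0.07. The genes mt-Nd6, mt-Atp8 and mt-Cytb are among these 26 and among the 34 lower within GC bins. All 15 mitochondrial RNAs were past 2-fold higher in the wild-type pair and past 2-fold lower within GC bins in the heterozygous pair. Their part in the 2 counts was not tested. Sst, the gene of the interneuron peptide somatostatin, was at 88.6 RPKM in WT, 34.4 in Ehmt1Δ/+, 101 in iTg and 44.2 in Ehmt1Δ/+ iTg, so that both heterozygous pools were below both others and the ratio between them was 0.20, and -0.35 without the 5% highest nuclei of each pool. Id4 (an inhibitor of bHLH factors, 0.126 and 0.231 RPKM), Zfp951 (0.0974 and 0.186 RPKM) and Baiap3 (a regulator of vesicle release, 10.8 and 15.9 RPKM) had ratios of 0.37 to 0.39, and Glis3 was at -0.32. Without the 5% highest nuclei the ratios were 0.05 for Id4, 0.07 for Zfp951, -0.13 for Baiap3 and -0.94 for Glis3, so that the sign of Baiap3 turned.

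**Figure D3:**
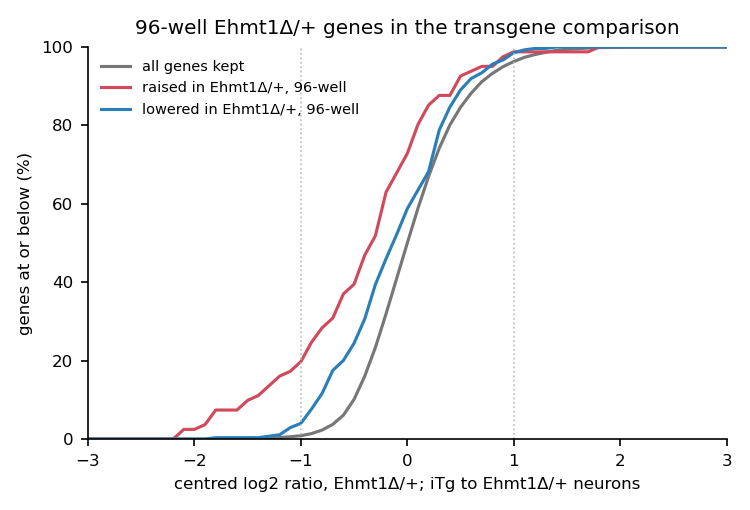
Cumulative share of genes in % (vertical axis) by centred log2 ratio of Ehmt1Δ/+; iTg to Ehmt1Δ/+ neurons (horizontal axis), for all genes kept, for the 81 kept genes raised and for the 274 kept genes lowered in Ehmt1Δ/+ neurons of the 96-well plates, with dotted lines at 2-fold. The curve of the raised genes lies left of that of all genes, with 19.8% against 0.86% at or below -1.

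Casp1 encodes caspase-1, the protease that activates interleukin-1β, and it was followed by the share of nuclei with a value above 0, since few neurons held it. It lies at chr9:5298517-5307265 on the plus strand. Its mean was 0.334 RPKM in WT, 0.721 in Ehmt1Δ/+, 0.155 in iTg and 0.290 in Ehmt1Δ/+ iTg. In Ehmt1Δ/+, 33 of 306 neurons were Casp1-positive (10.8%, 7.54% to 14.8%), and in Ehmt1Δ/+ iTg 12 of 280 (4.29%, 2.23% to 7.37%), so that the 2 counting intervals just missed each other. The WT share was 15 of 285 (5.26%, 2.98% to 8.53%), with an interval that overlaps that of Ehmt1Δ/+, and the iTg share 7 of 275 (2.55%, 1.03% to 5.17%). The share in Ehmt1Δ/+ iTg thus lay between those of iTg and WT, and both induced pools were below their partners. Neurons with more Slc17a7 than Gad1 went from 31 of 253 (12.3%) to 9 of 230 (3.91%), while those with more Gad1 held 2 of 52 and 3 of 50. Among neurons with Rorb above 0, a gene of layer IV neurons, it was 18 of 117 (15.4%, 9.38% to 23.2%) and 6 of 103 (5.83%, 2.17% to 12.2%), and these intervals overlap. No oligodendrocyte of either pool was positive (0 of 46 and 0 of 67), which allows 6.52% and 4.48% at their median depths of 49635 and 54250 reads, and 5 of 19 and 3 of 23 microglia were. With a threshold of 2 reads the neuron shares were 6.86% (4.30% to 10.3%) and 2.86% (1.24% to 5.55%), whose intervals overlap. Thinned to 181913 reads, with 26 and 45 shallower neurons left out, they were 8.26% and 3.61%. A smaller number of positive nuclei and less RNA in each nucleus cannot be told apart. Il1b, the gene of interleukin-1β, was found in 6 of 306 and 4 of 280 neurons.

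The genes of the C1 proteases of complement had the same highest pool as Casp1. C1s1 was at 0.686 RPKM in WT (SD across nuclei 3.07), 2.40 in Ehmt1Δ/+ (SD 10.4), 0.651 in iTg (SD 2.6) and 0.520 in Ehmt1Δ/+ iTg (SD 2.02), and at 0.556 and 2.07 in the WT and Ehmt1Δ/+ pools of the 96-well plates. Ehmt1Δ/+ stood above the other 3 pools, which lay close together. The share of neurons with C1s1 was 67 of 306 (21.9%, 17.4% to 27.0%) in Ehmt1Δ/+ and 34 of 280 (12.1%, 8.56% to 16.6%) in Ehmt1Δ/+ iTg, and 17.9% and 10.2% after thinning. Nearly all positive neurons had more Slc17a7 than Gad1, with 66 of 253 and 33 of 230 there and 1 of 52 and 1 of 50 among the others. C1ra, which encodes C1r, the protease that activates C1s, was at 1.10, 2.36, 1.70 and 0.980 RPKM in the 4 pools and was found in 78 of 306 (25.5%) and 44 of 280 (15.7%) neurons. C1rb, a close copy of C1ra that can share reads with it, was at 0.461, 1.043, 0.650 and 0.434 RPKM. Ratios were -1.35 for C1ra and -1.26 for C1rb. Of 16 complement genes 8 were kept, 3 of them lower (beside 0.86% of all genes) and none higher, with a median of -0.46 (-0.32 within GC bins, again with 3 lower), beside 0.17 and none past 2-fold in the wild-type pair. C4a and C4b, which C1s cleaves, were at -0.59 and -0.33. C1s1 was not found in microglia (0 of 19 and 0 of 23 nuclei) and was found in 2 of 46 and 0 of 67 oligodendrocytes, at the lower depth of glia. In the test over the 4 pools C1s1 had an effect of -1.12 (SE 0.31, adjusted p = 0.277 by limma).

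Cd6 and Apol7b, also found in few neurons, are given because of their levels in the 96-well plates, and were chosen after their values were seen. Cd6, a lymphocyte receptor gene, was found in 84 of 306 Ehmt1Δ/+ (27.5%, 22.5% to 32.8%) and 42 of 280 Ehmt1Δ/+ iTg neurons (15%, 11.03% to 19.7%), beside 34 of 285 in WT and 36 of 275 in iTg, and all of the positive heterozygous neurons had more Slc17a7 than Gad1. Its mean was 1.25, 3.48, 1.484 and 2.05 RPKM in WT, Ehmt1Δ/+, iTg and Ehmt1Δ/+ iTg, a ratio of -0.90, and of -2.18 without the 5% highest nuclei of each pool. Apol7b, an apolipoprotein L gene, was found in 31 of 306 (10.1%, 6.99% to 14.1%) and 12 of 280 (4.29%, 2.23% to 7.37%), beside 5 of 285 in WT and 4 of 275 in iTg. For Apol7b and Cd6, as for C1s1, C1ra and Casp1, Ehmt1Δ/+ had the highest share of the 4 pools.

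**Figure D4:**
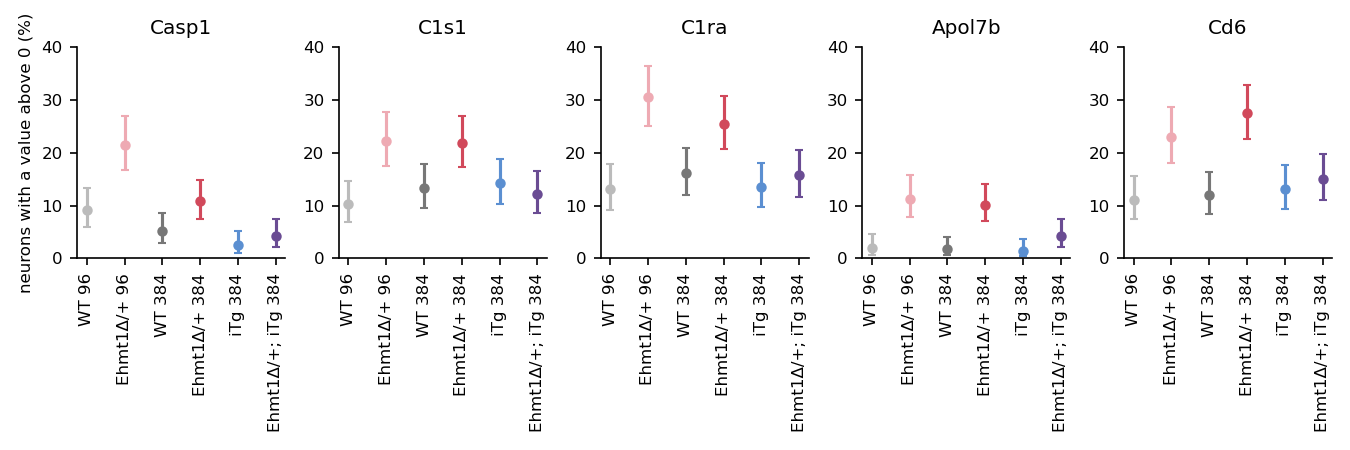
Share of neurons with a value above 0 in % (vertical axis, 0 to 40) for single genes in the 2 pools of the 96-well plates and the 4 of the 384-well plates (horizontal axis), with exact 95% intervals that cover counting error only. The Ehmt1Δ/+ pools are the highest, with Casp1 at 10.8% in Ehmt1Δ/+ and 4.29% in Ehmt1Δ/+; iTg of the 384-well plates.

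In other immune lists few of the kept genes were past 2-fold, beside 0.347% higher and 0.73% lower of all protein-coding genes. Lists this short would hold few at those shares. Of 20 inflammasome genes 5 were kept and none was past 2-fold (median 0.18), with Pycard, the adaptor of caspase-1, at 2.03 RPKM in Ehmt1Δ/+ and 3.14 in Ehmt1Δ/+ iTg (0.45). Casp1, at 0.721 and 0.290 RPKM, was below the filter of 10% of neurons and is not among these 5. None of 14 kept interferon response genes (median -0.28) or of 10 antigen presentation genes of MHC class I (median -0.10) passed 2-fold. Zap70, a kinase of the T-cell receptor, was the 1 lower gene among 10 of the lymphoid list (median -0.18), at 1.33 and 0.569 RPKM, with a ratio of -1.25 and of -0.83 within GC bins. Cd6, described above, is on the same list at -0.90. Within GC bins the medians were -0.10 for inflammasome, -0.12 for interferon response, 0.14 for MHC class I and 0.10 for lymphoid genes. The microglia marker list had 4 genes kept, none past 2-fold and a median of -0.14.

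Immediate early genes, transcription factors that neuronal activity induces within minutes, were lower in the induced heterozygous pool as a group. All 17 kept genes of 18 had ratios below 0, with a median of -0.80, and 4 were at least 2-fold lower, beside 0.86% of all genes. Nr4a3, an orphan nuclear receptor, was at 7.22 RPKM in WT, 10.9 in Ehmt1Δ/+, 6.54 in iTg and 4.56 in Ehmt1Δ/+ iTg (-1.40). Egr2, a zinc finger factor, was at 3.12, 2.58, 1.60 and 1.13 (-1.29). Egr4 of the same family was at 3.3, 2.27, 1.60 and 1.17 (-1.06), and Fosb, an AP-1 subunit, at 0.939, 1.13, 0.689 and 0.559 (-1.06). For these 4 genes the Ehmt1Δ/+ iTg pool was the lowest of the 4 pools. Egr2 and Egr4 were highest in WT and lower in both induced pools than in both others. Within GC bins the median of the group was -0.56 and Nr4a3 and Egr2 stayed past 2-fold. The wild-type pair had a median of -0.51 over the same 17 genes, with other members past 2-fold, namely Fos (-1.33), Egr1 (-1.31) and Junb (-1.48). Fos was at 12.6, 7.12, 4.64 and 4.49 RPKM, and Egr1 at 29.7, 17.9, 11.2 and 15.2. Over the 4 pools limma gave Fos an effect of -1.12 (SE 0.31, adjusted p = 0.277), Egr2 -1.10 (adjusted p = 0.313) and Nr4a3 -0.77 (adjusted p = 1), so that no member passed the test. Nr4a3 was found in 166 of 306 (54.2%, 48.5% to 59.9%) and 131 of 280 neurons (46.8%, 40.8% to 52.8%), intervals that overlap.

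Genes of this group are known targets of CREB, which binds the cAMP response element, and the windows before the 4 genes past 2-fold are given for that reason, from RefSeq on GRCm38.p6 and cut where the GENCODE gene begins. Capitals mark the core TGACG of that element or its reverse complement CGTCA. They are chr4:48045055-48045152 for Nr4a3 (plus strand, 3 matches), chr10:67535249-67535474 for Egr2 (plus strand, 0 matches), chr6:85513590-85513839 for Egr4 (minus strand, 2 matches) and chr7:19310052-19310295 for Fosb (minus strand, 1 match).
Nr4a3: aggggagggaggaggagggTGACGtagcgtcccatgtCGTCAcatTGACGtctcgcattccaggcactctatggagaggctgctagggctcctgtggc
Egr2: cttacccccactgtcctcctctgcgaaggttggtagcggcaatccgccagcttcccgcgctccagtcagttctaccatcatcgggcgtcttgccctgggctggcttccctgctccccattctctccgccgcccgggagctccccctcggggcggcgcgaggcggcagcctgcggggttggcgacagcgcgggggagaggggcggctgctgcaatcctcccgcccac
Egr4: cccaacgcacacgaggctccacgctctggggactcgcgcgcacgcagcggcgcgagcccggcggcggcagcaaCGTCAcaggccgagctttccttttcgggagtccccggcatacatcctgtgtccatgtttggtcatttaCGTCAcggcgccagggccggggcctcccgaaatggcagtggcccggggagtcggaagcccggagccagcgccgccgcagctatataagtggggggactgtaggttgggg
Fosb: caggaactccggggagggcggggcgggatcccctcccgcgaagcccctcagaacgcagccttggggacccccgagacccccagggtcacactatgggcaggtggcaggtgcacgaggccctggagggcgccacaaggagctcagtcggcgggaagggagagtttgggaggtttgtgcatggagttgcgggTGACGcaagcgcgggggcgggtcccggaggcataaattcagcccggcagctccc

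In full windows of 250 bases 9 of the 14 early genes in the table held the core, beside 4827 of 27025 windows (17.9%), and a match is a description of these letters and not of binding. Only the first listed window of each gene was searched. Egr2 has 5 listed windows, so its 0 matches hold for the printed one alone.

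Genes that act downstream of activity moved less. Of 25 kept effector genes, Sik1 (5.99 RPKM in Ehmt1Δ/+ and 3.03 in Ehmt1Δ/+ iTg, -1.12) and Pim1, a kinase gene (0.471 and 0.207, -1.05), were past 2-fold lower, beside 0.86% of all genes, none was higher and the median was -0.18. Within GC bins neither was past 2-fold, with Sik1 at -0.84 and Pim1 at -0.75, and the median was -0.15. Arc, a regulator of AMPA receptor uptake, was at 119 RPKM in WT, 113 in Ehmt1Δ/+, 85.1 in iTg and 88.3 in Ehmt1Δ/+ iTg, with ratios of -0.52 and -0.39 in the 2 pairs. The 12 genes of ERK feedback had a median of -0.01 (0.13 within GC bins) and none past 2-fold.

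The mitochondrially encoded RNAs changed in opposite directions in the 2 pairs. All 15 were lower in Ehmt1Δ/+ iTg than in Ehmt1Δ/+, with a median of -0.87 and 3 past 2-fold, and all 15 were at least 2-fold higher in iTg than in WT, with a median of 1.49. mt-Cytb, a subunit of complex III, was at 15.1 RPKM in WT, 33.0 in Ehmt1Δ/+, 38.7 in iTg and 18.1 in Ehmt1Δ/+ iTg. mt-Nd1, a subunit of complex I, followed the same order with 21.3, 52.8, 64.4 and 31.3. WT and Ehmt1Δ/+ iTg were the 2 low pools and Ehmt1Δ/+ and iTg the 2 high ones, an order that follows neither the Ehmt1 label nor CamKII-CreER. These transcripts are poor in GC, and within GC bins the median was -1.44 with all 15 lower. Since they are made outside the nucleus, such RNAs are commonly read as carry-over of cytoplasm, and their part in the other results was not tested.

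No kept gene of the synaptic and channel lists was past 2-fold in the heterozygous pair, beside 0.347% higher and 0.73% lower of all protein-coding genes. Lists this short would hold few or none at those shares. None of 35 dendritic spine genes passed 2-fold, with a median of -0.20, among them Camk2a and Kalrn, a regulator of spine growth (164 and 138 RPKM, -0.40). The medians were -0.18 for 14 AMPA and NMDA receptor genes, with Grin1 at 120 and 97.5 RPKM and Gria2 at 83.5 and 111, 0.23 for 11 GABA-A receptor genes, -0.04 for 24 vesicle release genes, -0.37 for 9 calcium channel alpha subunits and -0.07 for 25 potassium channel genes. None of their members was past 2-fold. Within GC bins the medians were -0.08 for spine genes, -0.13 for AMPA and NMDA receptors, 0.03 for vesicle release, -0.15 for calcium channels and -0.01 for potassium channels, and that of GABA-A receptors was near 0.

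Chromatin genes of the GLP pathway were likewise within 2-fold, beside the same low shares of all protein-coding genes. The medians were -0.13 for 14 genes of the GLP and G9a complex, 0.16 for 12 writers of H3K9me3 and HP1 readers, -0.01 for 11 H3K9 demethylases and -0.22 for 13 chromatin genes of Kleefstra-like syndromes. Setdb1, a writer of H3K9me3, was at 21.2 and 22.4 RPKM. The 8 kept germline genes that G9a and GLP repress elsewhere had a median of -0.11, the 25 imprinted genes 0.12 and the 8 genes around Ehmt1 -0.31, and none was past 2-fold. Of 7 genes around Rosa26 only Gt(ROSA)26Sor was, and their median was -0.02. The 10 nuclear long noncoding RNAs (median -0.04) and 12 heat shock genes (median -0.14) also held none. Within GC bins the median moved to -0.01 for the H3K9me3 list, to -0.37 for germline genes, to -0.14 for the genes around Ehmt1 and to 0.06 for heat shock genes. There, 1 of the 14 genes of the GLP and G9a complex was past 2-fold higher, with a median of -0.12 for that list.

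**Figure D5:**
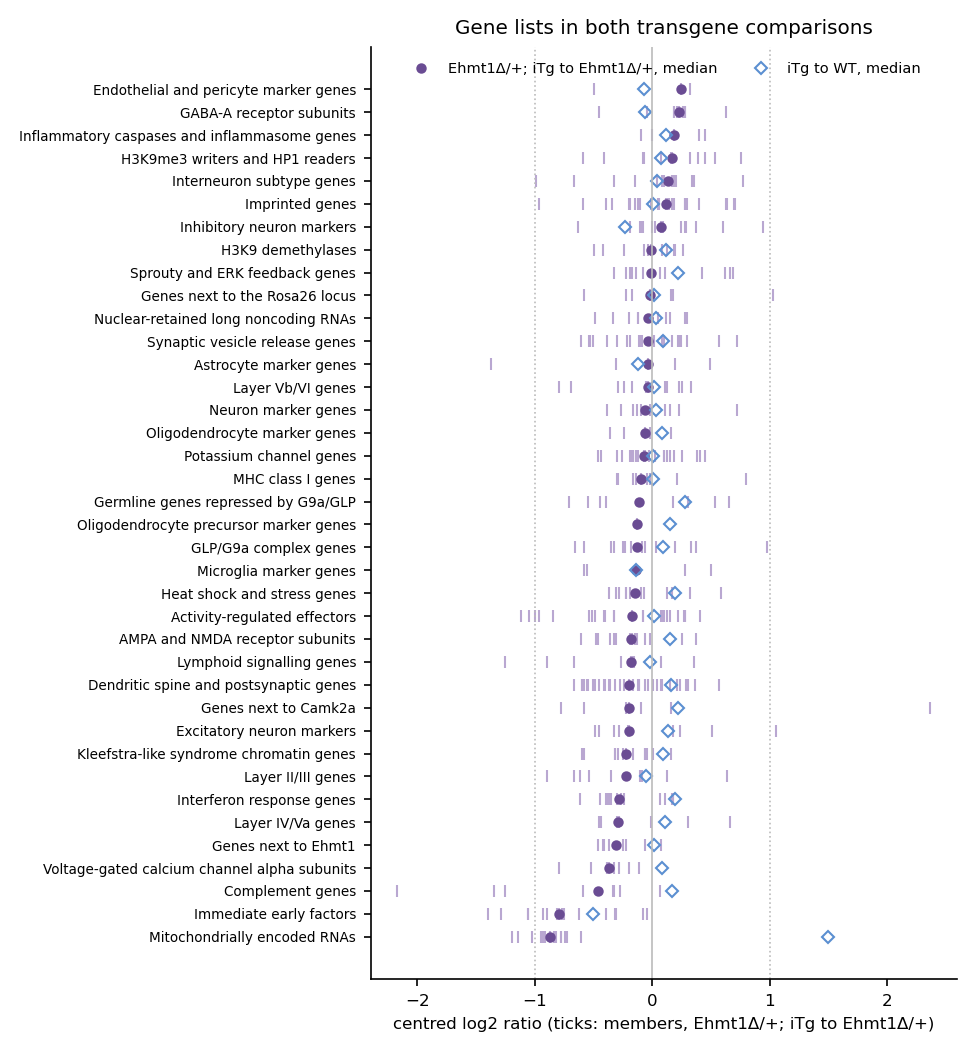
Centred log2 ratio (horizontal axis) of the members of each of 38 gene lists (rows) in Ehmt1Δ/+; iTg against Ehmt1Δ/+ neurons, as ticks with the list median as a filled circle, and the median in iTg against WT as an open diamond, with dotted lines at 2-fold. Immediate early factors and complement genes have medians of -0.80 and -0.46, and mitochondrial RNAs lie at -0.87 and 1.49 in the 2 comparisons.

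The makeup of the 2 pools was close by the larger of Slc17a7 and Gad1, but not by Gad1 above 0, the study's mark of inhibitory neurons. Gad1 was above 0 in 24.5% of Ehmt1Δ/+ and 38.6% of Ehmt1Δ/+ iTg neurons, beside 40% in WT and 31.6% in iTg. The cause of this difference was not tested. Neurons with more Slc17a7 than Gad1 made up 82.7% of Ehmt1Δ/+ (78.0% to 86.7%) and 82.1% of Ehmt1Δ/+ iTg neurons (77.1% to 86.4%), beside 80% in iTg and 73.7% in WT. At 10 RPKM or more, Sst marked 9.80% and 10.4% of the heterozygous neurons, Pvalb (parvalbumin) 2.94% and 5%, Vip (vasoactive intestinal peptide) 2.29% and 2.86% and Lamp5, a gene of neurogliaform cells and of superficial layers, 41.5% and 42.1%. The interval of Pvalb was 1.35% to 5.51% in Ehmt1Δ/+ and 2.76% to 8.25% in Ehmt1Δ/+ iTg, and these overlap. Among class genes, Slc17a6, another vesicular glutamate transporter gene, was higher (0.749 and 1.86 RPKM, 1.05, and 0.84 within GC bins). It was the only 1 of 10 excitatory markers past 2-fold (median -0.20), beside 0.347% of all protein-coding genes past 2-fold higher. Layer II/III genes had a median of -0.23 over 10, with Cux2, a homeobox factor of upper layers, at 31.6 and 18.9 RPKM (-0.90, and -0.62 within GC bins) in the heterozygous pair beside 31.2 and 28.7 in WT and iTg. The medians were -0.29 for 8 layer IV and Va genes, -0.04 for 13 of layers Vb and VI, 0.07 for 15 inhibitory markers and 0.13 for 14 interneuron subtype genes. Within GC bins they were 0.03 for excitatory markers, -0.11 for layer II/III, -0.07 for layer IV and Va and 0.26 for interneuron subtype genes. Oligodendrocyte, precursor, vascular and neuron marker lists had medians of -0.06, -0.13, 0.25 and -0.06 over 5, 1, 3 and 10 genes kept, and none of their members was past 2-fold.

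Taking both pairs, which share no nucleus, 22888 genes were kept in both and 5 were past 2-fold in the same direction, namely Arsi, which was higher, and Fmo1, Rmst (a long noncoding RNA of neural precursors) and the small nuclear RNAs Gm26110 and Gm22513, which were lower. Past 2-fold higher and lower were 3.71% and 0.86% of genes in the heterozygous pair and 0.256% and 0.614% in the wild-type pair. At those shares a few genes would coincide, and whether these 5 are more than that was not tested. Without the 5% highest nuclei Fmo1 was at -0.22 in the heterozygous and 0.15 in the wild-type pair, so that its sign in the latter turned. Rmst was at 2.19, 1.86, 0.814 and 0.974 RPKM in WT, Ehmt1Δ/+, iTg and Ehmt1Δ/+ iTg, so that both induced pools were below both others. The test over the 4 pools, whose residual is the difference between the pairs, called 7 of 23506 genes (0.0298%), 2 higher and 5 lower, and 713 genes had an unadjusted p under 0.05. Beside Arsi these were Fmo1 (-1.48, SE 0.31, adjusted p = 0.0183 by limma), Myh7, a cardiac myosin gene (-1.40, adjusted p = 0.0288), and the unnamed genes Gm44408, Gm16147, Gm22513 and Gm39456. Myh7 was at 0.95, 1.21, 0.541 and 0.244 RPKM. Ehmt1 had an effect of 0.01 (SE 0.31, adjusted p = 1). In simulated pools this fit called 18 of 50 genes changed by 1 on the log2 scale and 50 of 50 changed by 2, by 3 and by 4. It also called 52 unchanged genes, a larger share of its calls than the 0.05 set. The adjusted p of this fit therefore does not bound the share of false calls, which also holds for the 7 genes named here.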

How the data were processed

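Nuclei were sorted by DAPI into 384-well or 96-well plates and sequenced by RamDA-seq. By the study's methods, the authors trimmed reads, mapped them to mm10 with HISAT2 2.0.4, filtered nuclei, counted reads with featureCounts (Subread 1.5.0) and assigned cell types by clustering. They deposited RPKM values per gene and nucleus, and these RPKM values were the starting point. No counts of reads were used. Read totals were recovered from the steps of the RPKM values, which are not all whole reads since shared reads had been divided, so genes with close copies or overlaps are uncertain.

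Members and gene lists were chosen with earlier results of these data known. RPKM was averaged over the neurons of a pool, 0.1 was added before taking log2 ratios, which understates the ratio of low genes, and the median over genes above 0 in at least 10% of neurons was subtracted. Past 2-fold means a centred log2 ratio of at least 1 or at most -1. With 1 pool per genotype no test across nuclei was made. The only test was limma 3.58.1 (R 4.3.3) on 4 pools with Benjamini-Hochberg adjustment at 0.05, with 1 residual degree of freedom. It was tried first on simulated data, where false calls exceeded that rate. The authors used edgeR, which needs counts. GC content was that of the longest GENCODE M21 transcript of the same gene (23409 of 23497 genes), and upstream windows came from RefSeq.

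Named genes were those the study follows in these nuclei, the 15 highest and 15 lowest genes with a mean of at least 1 RPKM, ranked by the smaller of the ratios with and without the 5% highest nuclei, list members past 2-fold or else of highest mean in 38 lists, and 8 genes from each 96-well list, of which 1 is not reported here. Shares have exact Clopper-Pearson intervals at 95%, and a share of 0 the limit of 3 counts. Depth was compared by thinning nuclei to the 10th percentile of read totals. Averages and figures were made in Python 3.11.15 with numpy 2.4.6, pandas 2.3.3, SciPy 1.17.1 and matplotlib 3.10.9.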

Additional observations from a re-analysis of the deposited data

Results flagged for a closer look

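The log2 ratio of the induced pool to its partner had opposite signs in the 2 pairs of pools for 27 genes that were past 2-fold in both, of 22888 kept in both. Over all genes, 3.71% were past 2-fold higher and 0.86% lower in the heterozygous pair, and 0.256% and 0.614% in the wild-type pair. The difference between the pairs was not tested, since each rests on 1 pool per group. Among them were mt-Atp8, mt-Nd6 and mt-Cytb, and Pim1 of the effector list, at -1.05 and 1.03. The list of mitochondrial RNAs had a median log2 ratio of -0.87 in the pair labelled Ehmt1Δ/+ and 1.49 in the wild-type pair. Of its members, mt-Cytb had ratios of -1.02 and 1.44 and mt-Nd6 of -1.19 and 1.43. Among small RNA genes with the opposite order were Gm24384 (a small nuclear RNA), at 1.37 and -1.06, Gm24347 (a small nucleolar RNA), at 1.15 and -1.56, and the ribosomal RNA genes Gm23114, at 1.48 and -1.02, and Gm23084, at 1.02 and -1.67, while the miRNA gene Mir7078 went with the mitochondrial RNAs, at -1.60 and 1.23. Gm24347 was at 14.5 RPKM in WT, 11.4 in Ehmt1Δ/+, 4.56 in iTg and 28.5 in Ehmt1Δ/+ iTg.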

How the results depend on the processing

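The counts of genes past 2-fold in the heterozygous pair, 871 higher and 202 lower, depended on the setting. They were 392 and 32 with a pseudocount of 1, 2267 and 1284 with no filter on low values, 1404 and 109 without centring, 1367 and 115 with equal total RPKM, 1737 and 365 with 5% trimmed means, 336 and 15 with means of log2(RPKM + 1), and 72 and 74 among protein-coding genes. The lower count was 118 at a mean of at least 1 RPKM and the higher count 417 with GC-bin centring, and GC bins and protein-coding genes were chosen after the data were seen. In the wild-type pair the counts were 27 and 26 with a pseudocount of 1, 853 and 1402 with no filter, 14 and 12 with means of log2 and 21 and 37 among protein-coding genes, the lower count was 261 with a pseudocount of 0.01, 230 without centring and 629 with trimmed means, and the higher count was 98 in neurons with more Slc17a7 than Gad1. Raised 96-well genes past 2-fold lower were 16, and 1 and 25 with pseudocounts of 1 and 0.01, 7 at a mean of at least 1 RPKM, 31 with trimmed means, 0 with means of log2 (median 0.25) and 3 with a list threshold of 3-fold. Lowered genes past 2-fold higher were 4, and 0 and 9 with pseudocounts of 1 and 0.01, 1 at a mean of at least 1 RPKM, 13 without centring, 11 with equal totals, 30 with trimmed means, 1 with means of log2, 7 in neurons with more Slc17a7, 6 with the filter of the wild-type pair and 0 at 3-fold (median -0.73). The Casp1 share of Ehmt1Δ/+ was 6.86% at 2 reads. Over all lists the higher members were 3, and 7 with trimmed means, 5 in neurons with more Slc17a7 and 5 without centring, where the lower ones were 8 in place of 14. limma called 4 genes at a mean of at least 1 RPKM, 3 with a pseudocount of 1 and 0 without centring, where the adjusted p of Arsi was 1. Of 48 named genes past 2-fold, 16 stayed so with a pseudocount of 1, 6 with means of log2, 31 within GC bins and 41 to 48 under the others. The median of the raised genes changed sign with means of log2, and that of the lowered genes, -0.13, was 0.00 without centring, 0.02 with equal totals and 0.01 within GC bins. The cause of these changes was not tested.

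With 1 pool per genotype no replicate was left out of a test, since 3 pools leave no residual, and no paired analysis was possible because the pools carry no replicate numbers that pair nuclei. At a median of 323273 reads per neuron a gene listed at 0 in a nucleus was not detectable rather than absent, and glia were shallower.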

Other observations

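Among the 27 genes with opposite signs was Ccn2, a matricellular growth factor gene that marks neurons of layer VIb in cortex. It was at 2.04 RPKM in WT, 1.57 in Ehmt1Δ/+, 0.776 in iTg and 5.33 in Ehmt1Δ/+ iTg, which gave log2 ratios of 1.54 and -1.20, the former 0.85 without the 5% highest nuclei of each pool. It was chosen after its values were seen. In the 96-well plates it was at 4.33 RPKM in WT and 2.17 in Ehmt1Δ/+ neurons.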
